A study of Mus musculus with 80 samples.

Results

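Laminins are the trimeric glycoproteins of basement membranes, and each trimer joins an α, a β and a γ chain, which are separate gene products. The values described here are those of 9 laminin chain genes in muscle stem cells (MuSCs): *Lama2*, *Lama3*, *Lama4*, *Lama5*, *Lamb1*, *Lamb2*, *Lamb3*, *Lamc1* and *Lamc3*. They were chosen by name out of 25899 genes listed, all 9 were found, and *Lamc3* was among them for its high level in limb MuSCs before grafting, so the differences between muscles before grafting are given as a description without a test. *Lama1*, which was not chosen, enters only where the α chains are summed.

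MuSCs of extraocular muscle (EOM) and of the *tibialis anterior* of the limb (TA) were sorted by nuclear GFP from 10 *Tg:Pax7-nGFP* mice, whose transgene is driven by *Pax7*, the gene that defines MuSCs, and which were 7.6 weeks old in Experiment 1 (4 mice) and 7 weeks old in Experiment 2 (6 mice). Equal numbers of EOM and TA cells of one donor were grafted into separate TA muscles, injured beforehand with cardiotoxin, of the same *Rag2-/-;γC-/-* recipient, a strain that lacks lymphocytes, and GFP-positive cells were sorted again at day 21 by the labels. Each RNA-seq library before grafting came from 500 cells, those of EOM grafts from as few as 9 cells (median 35) and those of TA grafts from 16 to 67 cells (median 26), by the labels. For some grafts the supplement of the study lists higher cell numbers than their labels. The quality criteria of the study passed 30 of 40 libraries: 8 TA and 8 EOM pre-graft, 7 TA and 7 EOM post-graft, with 1 library of Experiment 1 in each graft group. Libraries of one group came from different donor mice.

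Total reads per passing library ran from 3326270 to 14402975. The share of gene reads on mitochondrial genes was 2.96 to 9.18% in EOM and 3.47 to 28.8% in TA before grafting, and a median of 43.7% in EOM grafts and of 38.3% in TA grafts, with over 50% in 3 EOM grafts and in 1 TA graft, where it was 81.1%. *Pax7* was detected in every library. The summed level of 10 MuSC markers had a median of 18553 RPM in TA and 16686 RPM in EOM before grafting, and of 3215 RPM in TA grafts and 4316 RPM in EOM grafts. Levels below are log2 RPM, where RPM is the number of reads of a gene scaled to a common library size. A gene without a read stands in the table at 0.9 of a read, which is between -1.67 and 0.48 log2 RPM according to depth.

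In skeletal muscle the basement membrane around each fibre also covers the MuSC, which lies beneath it. The α2 chain, with β1 and γ1, makes the main laminin of this sheath and binds dystroglycan and integrin α7β1, and its loss causes a congenital muscular dystrophy. The chains α4 and α5 are those of blood vessel walls, α5 also of many developing tissues, while α3 and β3 belong to the laminin that anchors epithelia. The chain β2 takes the place of β1 at the neuromuscular junction, and γ3 is a rarer γ chain, known from the retina, peripheral nerve and skin.

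The γ chains differ at the tail that integrins need. A glutamate at the third-last place of γ1 is required for binding of integrins and is missing from γ3. The last 30 coding bases of *Lamc3*, stop codon included, are shown for this reason from the reference genome (GRCm38), with the third-last codon in capitals, TGT for cysteine. They lie in the last coding exon, at chr2:31945385-31945414 (plus strand).
Lamc3: agcagtctgccagagaacTGTgccagctag
The coding sequence that ends so holds 1581 codons.

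*Lamc3* (ENSMUSG00000026840, chr2:31887291-31946539) was the chain that set TA MuSCs apart before grafting. In the 8 TA libraries it ran from 5.34 through a median of 6.04 to 6.90 log2 RPM, on 77 to 193 reads. The EOM libraries lay between -1.56 and 1.48 log2 RPM with a median of -0.97. No read was found in 5 of these 8 EOM libraries, and a count of 0 allows up to 3 reads, counting error only. The lowest TA library lay above the highest EOM library, the means differed by 6.69 on the log2 scale, and TA was higher in 7 of 7 donors with both libraries. *Lama3*, which encodes α3, was the other chain without overlap between muscles. Its TA levels ran from 6.77 through 7.25 to 7.94 log2 RPM and its EOM levels from -0.93 through 3.35 to 4.61 log2 RPM, with a mean difference of 4.30 and TA higher in 7 of 7 donors. These 2 chains were thus higher in TA without overlap, as were 0.477% of all genes tested. Part of the *Lamc3* exons, 382 bp, is shared with the antisense gene *Gm13441*, and the counting is not stated to use strand, so that reads of the pair cannot be separated. Exons of *Lama2* and *Lama3* share 631 bp and 197 bp with the antisense genes *Gm48084* and *Gm29200*, with the same limit. *Gm13441* was listed with 0 to 12 reads in TA pre-graft libraries and with none elsewhere.

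No other chain separated the muscles before grafting. *Lamb1* was lower in TA by a mean of 1.51 on the log2 scale (TA 0.16, 5.14 and 5.58 log2 RPM as lowest, median and highest, EOM 4.90, 5.65 and 6.98), a difference that fell to 0.93 without the TA library of mouse 5 of Experiment 2, which held 2 reads. *Lamb2* was lower in TA in all 7 donors, with a mean difference of -0.67 and overlapping ranges. The differences of TA from EOM were -0.51 for *Lama2*, 0.058 for *Lamc1*, 0.10 for *Lama4* and 0.13 for *Lama5*, against a median of -0.30 over all genes tested. *Lamb3*, the β chain that pairs with α3 in epithelia, had no read in 6 of 8 libraries of either muscle and at most 22 reads.

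**Figure D1:**
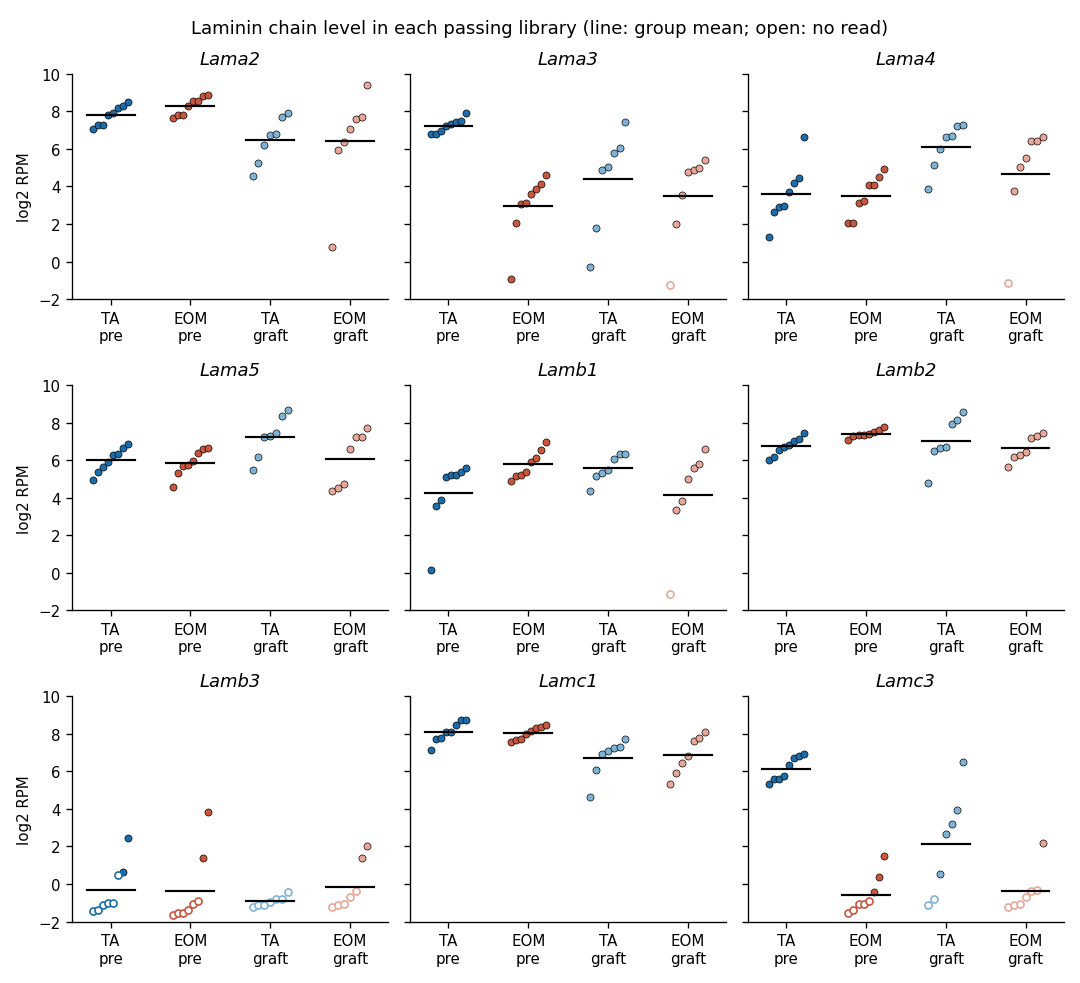
Level of each of the 9 laminin chains in every passing library, 1 panel a gene (vertical axis log2 RPM, lines at group means, open circles for libraries without a read). *Lamc3* and *Lama3* stand at 5.34 or more in all 8 TA pre-graft libraries and below 4.7 in all 8 EOM pre-graft libraries, and *Lama4* reaches its highest levels in grafts.

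Levels of different chains can be compared only per length, here as RPM per kilobase of the longest coding sequence (mean ± SD over libraries). In TA MuSCs before grafting the order began with *Lamc1* at 60.3 ± 21.3, followed by *Lama2* at 25.0 ± 9.0, *Lamb2* at 20.7 ± 6.85, *Lamc3* at 16 ± 6.90 and *Lama3* at 15.6 ± 4.53. From *Lama2* to *Lama3* neighbours in this order lay within 1 SD of each other, whereas *Lamc1* stood above them. After a gap of more than both SDs the others followed, with *Lama5* at 6.27 ± 2.68, *Lamb1* at 5.11 ± 3.02, *Lama4* at 4.09 ± 5.93 and *Lamb3* at 0.248 ± 0.546, each of which from *Lama5* to *Lama4* lay within the spread of its neighbour. EOM MuSCs shared the top of this order, with *Lamc1* at 55.9 ± 13, *Lama2* at 35.1 ± 10.9 and *Lamb2* at 31.7 ± 4.77. There *Lamb1* came next at 11.2 ± 6.07, with a gap to *Lamb2* of more than both SDs, then *Lama5* at 5.76 ± 2.46 and *Lama4* at 2.61 ± 1.71. *Lama3*, at 1.13 ± 0.763, and *Lamc3*, at 0.128 ± 0.213, were near the end of the order in EOM.

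In TA grafts the level of most genes fell, and laminin chains were called in both directions by limma. The median change of all 13076 genes tested was -1.09 on the log2 scale, so that each change is also given relative to it. Of the 8 chains other than *Lamc3*, 7 passed the filter on low values, and 2 were called higher and 3 lower (limma, Benjamini-Hochberg adjusted p under 0.05 and a log2 change beyond 1), where 3.79% of all genes tested were called higher and 30.9% lower. Called higher were *Lama4* and *Lama5*, and called lower were *Lama2*, *Lama3* and *Lamc1*. Of those called lower, *Lama2* and *Lamc1* changed by -0.24 and -0.30 relative to all genes, near the general fall, and *Lama3* by -1.77. With the donor as block 1 chain was called higher and 3 lower, where the shares of all genes were 3.72% and 25.2%. After centring on library medians 4 were called higher and 1 lower (7.67% and 5.68% of all genes). On recovered reads edgeR and DESeq2 each called *Lama4*, *Lama5*, *Lamb1* and *Lamb2* higher and none lower, where edgeR called 5.98% of all genes higher and 3.08% lower and DESeq2 8.88% and 4.15%. In bulk RNA fewer cells of a type and less RNA per cell cannot be told apart.

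*Lama4* (ENSMUSG00000019846, chr10:38965515-39110188) rose most. Before grafting it ran from 1.33 through 3.34 to 6.65 log2 RPM in TA, and in TA grafts from 3.88 through 6.64 to 7.28 log2 RPM. All 7 grafts lay above the pre-graft median and 3 above the highest pre-graft library, that of mouse 6 of Experiment 2, which alone reached 248 reads where the others held 4 to 44. The change was 2.52 (SE 0.67, limma adjusted p = 0.00834), or 3.60 relative to all genes, and was positive in 6 of 7 donors. In Experiment 2 alone it was 2.23 and was not called (adjusted p = 0.0535), while edgeR and DESeq2 on recovered reads gave 2.52 and 2.64 with adjusted p of 0.0162 and 6.04e-04.

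*Lama5* (ENSMUSG00000015647, chr2:180176373-180225859) ran from 4.94 through 6.10 to 6.88 log2 RPM in TA before grafting and from 5.47 through 7.28 to 8.67 log2 RPM in TA grafts. In 5 of 7 grafts it exceeded every pre-graft library. The change was 1.23 (SE 0.45, limma adjusted p = 0.0373), or 2.31 relative to all genes, and was positive in 6 of 7 donors. It lost its call in Experiment 2 alone (0.82, adjusted p = 0.217), with the donor as block (1.18, adjusted p = 0.0519), without a filter (adjusted p = 0.0731), in 1 fit over the 4 groups (adjusted p = 0.0530) and on leaving out single libraries for 8 of the 15, whereas centring on library medians, edgeR and DESeq2 gave 2.12, 2.02 and 2.13, all called.

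The main α chain of the muscle sheath was called lower by limma, as was *Lamc1*. *Lama2* (ENSMUSG00000019899, chr10:26981288-27616942) ran from 7.05 through 7.85 to 8.52 log2 RPM before and from 4.57 through 6.73 to 7.92 log2 RPM in TA grafts, and 5 of 7 grafts lay below every pre-graft library. It fell by 1.33 (SE 0.44, limma adjusted p = 0.0250), close to the median of all genes (a change of -0.24 relative to it), and was lower in 6 of 7 donors. *Lamc1* (ENSMUSG00000026478, chr1:153218922-153332786), the γ1 partner of most trimers, fell by 1.38 (SE 0.41, limma adjusted p = 0.0145), or -0.30 relative to all genes. Its levels ran from 7.16 through 8.09 to 8.75 log2 RPM before and from 4.62 through 7.10 to 7.73 log2 RPM after. Neither was called after centring on library medians, which gave -0.43 for *Lama2* and -0.49 for *Lamc1*, nor with edgeR, which gave -0.33 and -0.54. In Experiment 2 alone the changes were -0.94 (adjusted p = 0.161) and -1.25 (adjusted p = 0.0716).

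*Lama3* fell further than the genes around it. From the pre-graft range of 6.77 to 7.94 log2 RPM it went to -0.29, 5.05 and 7.44 log2 RPM (lowest, median, highest) in TA grafts, and 6 of 7 grafts lay below every pre-graft library. The change was -2.85 (SE 0.75, limma adjusted p = 0.00786), or -1.77 relative to all genes, and -3.02 in Experiment 2 alone (adjusted p = 0.0294). It was negative under each alternative, but edgeR and DESeq2 gave -1.10 and -1.04 and did not call it (adjusted p = 0.186 and 0.165). Without the TA graft of mouse 3 of Experiment 2, in which mitochondrial genes took over 50% of gene reads, it was -2.08.

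*Lamc3*, whose fall is given without a test because its level before grafting chose it, was lower in the graft in 7 of 7 donors. The TA grafts held no read in mice 1 and 6 of Experiment 2, 3 reads in mouse 3 of Experiment 1, and 10, 11 and 30 reads in mice 5, 3 and 2 of Experiment 2. The graft of mouse 4 of Experiment 2 differed, with 161 reads and 6.52 log2 RPM, within the pre-graft range. The mean change was -4.00, or -2.91 relative to all genes, and leaving out single libraries gave -4.73 to -3.45. DESeq2, which compares mean counts, gave -1.13.

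The β chains were not called. *Lamb1* (chr12:31265234-31329644) ran from 4.38 through 5.48 to 6.35 log2 RPM in TA grafts, a change of 1.32 (SE 0.66, limma adjusted p = 0.111) that was 0.74 without the TA pre-graft library of mouse 5 of Experiment 2, which held 2 reads. *Lamb2* (chr9:108479862-108490530) ran from 4.80 through 6.68 to 8.58 log2 RPM, a change of 0.30 (SE 0.45, limma adjusted p = 0.602). Relative to all genes these are 2.41 and 1.38, and both chains were called higher after centring on library medians (2.22 and 1.19), with edgeR (1.77 and 1.33) and with DESeq2 (1.89 and 1.45). *Lamb3* had no read in any TA graft, which allows up to 3 reads in each.

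**Figure D2:**
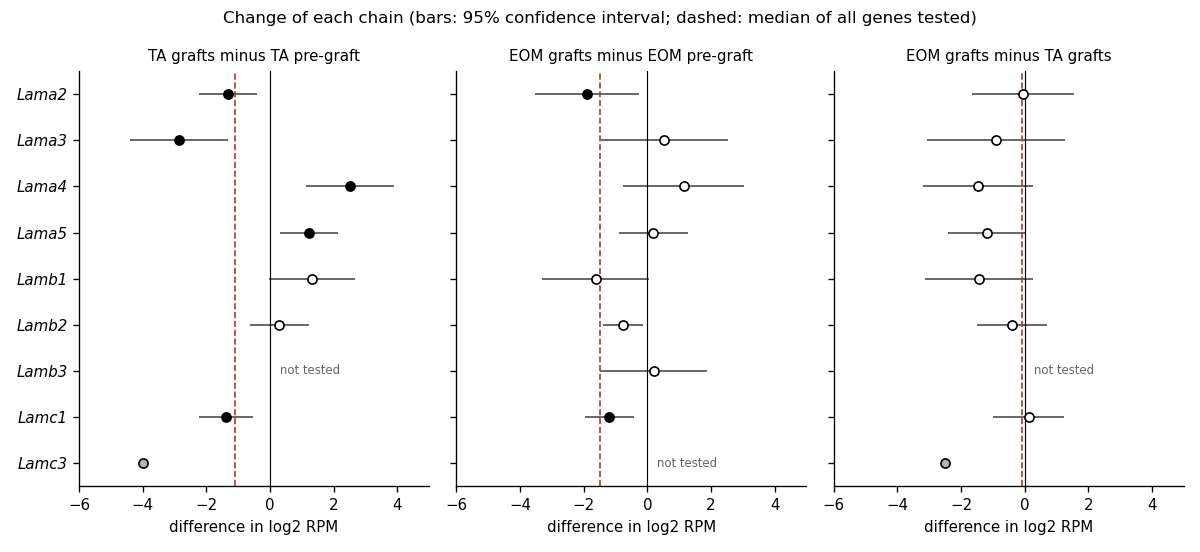
Change of each chain between groups (horizontal axis, difference in log2 RPM, bars 95% confidence intervals, dashed line the median of all genes tested). Filled points were called, open points were not, and grey points without a bar are *Lamc3*, shown as a description. In TA grafts *Lama4* at 2.52 and *Lama5* at 1.23 lie to the right of 0 and *Lama3* at -2.85 to the left of the median of -1.09.

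The start regions of *Lama2* and *Lama5* are shown as those of chains called in opposite directions by limma in TA grafts. The *Lama2* change lay near the median of all genes (-0.24 relative to it). It was not called after centring on library medians, with edgeR or with DESeq2, and *Lama5* lost its call under several alternatives. A link between these sequences and the changes was not tested. RefSeq (GRCm38.p6) windows of the 250 bases before the transcription start were listed for 5 of the 9 chains, with none for *Lamc1*, *Lamc3*, *Lama3* and *Lama4*. Capitals mark GGGCGG, the letters bound by Sp factors, or its complement CCGCCC. The windows are chr10:27616943-27617192 for *Lama2* and chr2:180225860-180226109 for *Lama5*, both read on the minus strand. GENCODE M21 starts *Lama2* further upstream, at chr10:27619758, so the window may not precede the start in use.
Lama2: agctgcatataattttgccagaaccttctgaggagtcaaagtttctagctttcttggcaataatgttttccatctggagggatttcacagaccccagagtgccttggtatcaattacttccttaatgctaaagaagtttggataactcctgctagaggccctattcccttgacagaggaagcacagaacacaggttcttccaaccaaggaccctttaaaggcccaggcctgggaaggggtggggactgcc
Lama5: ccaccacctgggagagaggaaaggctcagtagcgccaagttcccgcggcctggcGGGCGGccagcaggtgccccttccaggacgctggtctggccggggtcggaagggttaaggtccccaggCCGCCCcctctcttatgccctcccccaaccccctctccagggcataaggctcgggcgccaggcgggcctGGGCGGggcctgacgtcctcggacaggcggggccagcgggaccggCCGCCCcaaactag
The *Lama5* window held 4 matches, which do not overlap, 19 CpG sites and 72.4% G or C, and the *Lama2* window 0 matches, 0 CpG sites and 47.2% G or C. The *Lamb1* window held 2 matches, 14 CpG sites and 62% G or C, that of *Lamb2* 0 matches, 3 CpG sites and 43.6%, and the 2 windows of *Lamb3* 0 matches and 58.8% and 61.2%. Of all 32851 windows, 32.7% held a match and the median was 52.4% G or C. Neither window holds CAGCTG, an E-box of myogenic factors, found on either strand in 4271 windows. Both also lack the E-box CACGTG, found in 1978 windows. The TEAD motif GGAATG, found in 4153 windows, is in neither of them.

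In EOM grafts the fall of all genes was larger, with a median change of -1.48 over 13094 genes, and no chain was called higher by limma. *Lama2* and *Lamc1* were called lower, 2 of 8 chains tested, where 55.8% of all genes were called lower and 3.51% higher. *Lamc3* did not pass the filter on low values. No chain was called with the donor as block (2.3% of all genes higher and 35.7% lower) or after centring on library medians (6.65% and 4.84%). On recovered reads edgeR called *Lama4* and *Lama5* higher (6.93% of all genes higher and 2.9% lower), and DESeq2 called these and *Lama3* (9.13% and 4.17%). *Lama2* ran from 7.67 through 8.40 to 8.85 log2 RPM before and from 0.79 through 7.04 to 9.39 log2 RPM in EOM grafts, where 5 of 7 lay below and 1 above every pre-graft library. The change was -1.89 (SE 0.79, limma adjusted p = 0.0421), or -0.42 relative to all genes. Without the graft of mouse 4 of Experiment 2, which held 3 reads of *Lama2*, it was -0.96 (adjusted p = 0.0527), and the call was lost on leaving out single libraries for 8 of the 15. *Lamc1* ran from 7.55 through 8.08 to 8.47 log2 RPM before and from 5.30 through 6.79 to 8.10 log2 RPM after, a change of -1.19 (SE 0.37, limma adjusted p = 0.0107) that turned to 0.057 after centring on library medians, to 0.087 with DESeq2 and to 0.28 relative to all genes. In Experiment 2 alone the changes were -2.12 (adjusted p = 0.0558) and -1.14 (adjusted p = 0.0400). Neither chain was called without the 3 EOM grafts rich in mitochondrial reads.

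*Lama4* and *Lama5* in EOM grafts depended on the test. *Lama4* ran from 2.05 through 3.65 to 4.93 log2 RPM before and from -1.14 through 5.51 to 6.65 log2 RPM in EOM grafts. In 5 of 7 grafts it exceeded every pre-graft library, while the graft of mouse 2 of Experiment 2 held no read. The change was 1.15 (SE 0.91, limma adjusted p = 0.267), and without that graft it was 2.12 and called (adjusted p = 0.00553). On recovered reads it was 3.19 with edgeR (adjusted p = 0.0105). *Lama5* ran from 4.57 through 5.86 to 6.64 log2 RPM before and from 4.36 through 6.57 to 7.73 log2 RPM after, a change of 0.18 (SE 0.52, limma adjusted p = 0.759) against 1.86 with edgeR (adjusted p = 0.0292). In Experiment 2 alone limma gave 1.40 for *Lama4* (adjusted p = 0.286) and 0.81 for *Lama5* (adjusted p = 0.243).

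The β chains and *Lama3* in EOM grafts were not called by limma. *Lamb1* changed by -1.63 (SE 0.81, limma adjusted p = 0.0828). This was -0.74 without the graft of mouse 2 of Experiment 2, which held no read of it, and -2.04 without that of mouse 1 of Experiment 2 (adjusted p = 0.0345). *Lamb3* changed by 0.20 (SE 0.81, limma adjusted p = 0.832). It had no read in 6 of 8 EOM libraries before grafting and in 5 of 7 EOM grafts. Most of its values therefore stand at the level of no read, which depends on depth. *Lamb2* had an adjusted p of 0.0316 in limma, but its change of -0.77 was not beyond 1 and became 0.48 after centring on library medians. *Lama3*, low in EOM before grafting, lay at -1.24, 4.77 and 5.39 log2 RPM (lowest, median, highest) in EOM grafts. Its change of 0.53 (SE 0.96, limma adjusted p = 0.627) became -0.093 with the donor as block. *Lamc3* had no read in 6 of 7 EOM grafts and 8 reads in that of mouse 4 of Experiment 2, so that no EOM library held more than 8 reads, before grafting or after residence in a TA muscle.

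Between EOM and TA grafts no chain was called, and neither was any of 12377 genes tested (0%), with 452 at an unadjusted p under 0.05 in limma, 0 called with edgeR and 3 with DESeq2. The largest difference among the chains was that of *Lamc3*, with EOM grafts lower by 2.51, given without a test because it passed the filter on low values mostly through TA grafts. Its groups overlapped, at -1.14, 2.67 and 6.52 log2 RPM in TA grafts and -1.24, -0.71 and 2.20 log2 RPM in EOM grafts, and EOM was lower in 4 of 6 donors with both grafts. *Lama4*, *Lamb1* and *Lama5* were lower in EOM grafts by 1.46, 1.44 and 1.18, with intervals of -3.18 to 0.25, -3.12 to 0.25 and -2.40 to 0.046. Without the EOM graft of mouse 2 of Experiment 2, which held no read of *Lama4* or *Lamb1*, these 2 differed by -0.50 and -0.56, edgeR gave -0.35 for *Lama4*, and *Lama4* was lower in EOM in 3 of 6 donors. *Lama2* differed by -0.055 (interval -1.67 to 1.56) and changed sign after centring on library medians (0.057). Such intervals leave room for differences beyond 1 on the log2 scale in either group for *Lama2*. Whether the change of a chain on grafting differed between EOM and TA was not tested, and the grafts of both origins are compared with different pre-graft libraries.

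The make-up of the α and β classes does not depend on the scaling of a library. *Lama2* was 48.1 ± 11.1% (SD, n = 8) of the α chain reads per coding kilobase in TA before grafting, and 26.7 ± 14.8% (n = 7) in TA grafts. Its difference of -21.4 points had an exact permutation p of 0.00761, two-sided, and 0.0533 after Benjamini-Hochberg adjustment over 7 such tests, of which 6 are given. In EOM the share was 78.3 ± 6.86% (n = 8) before and 45.6 ± 34.3% (n = 7) after, a difference of -32.7 points (exact permutation p = 0.0208, adjusted 0.0707). The EOM grafts were split, with 2 of 7 at 89.3% and 93.6% and the graft of mouse 4 of Experiment 2 at 0.568%. Thus neither fall passed the adjusted threshold, although such groups of 8 and 7 can reach an exact p of 1.55e-04.

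The shares of α4 and α5 had higher means in grafts. *Lama4* made up 7.46 ± 9.45% of α chain reads in TA before and 31.1 ± 9.81% after grafting, and *Lama5* 12.9 ± 6.82% and 33.6 ± 12.6%. In EOM, *Lama4* went from 6.11 ± 3.64% to 25.3 ± 18% and *Lama5* from 12.6 ± 3.08% to 22.7 ± 16.9%. The α3 share, 31.5 ± 9.93% in TA and 2.97 ± 2.32% in EOM before grafting, was 8.51 ± 7.67% and 6.24 ± 4.99% in the grafts. These shares of α3, α4 and α5 are descriptions without a test.

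Among β chains *Lamb1* made up 19.2 ± 10.6% in TA before and 30.7 ± 19.4% in TA grafts (exact permutation p = 0.170, adjusted 0.298), and 24.8 ± 9.79% and 21 ± 11.8% in EOM (exact permutation p = 0.514, adjusted 0.514). Between EOM and TA grafts the shares of *Lama2* (exact permutation p = 0.226, adjusted 0.316) and *Lamb1* (exact permutation p = 0.284, adjusted 0.331) differed by less than the spread between grafts allowed to call.

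**Figure D3:**
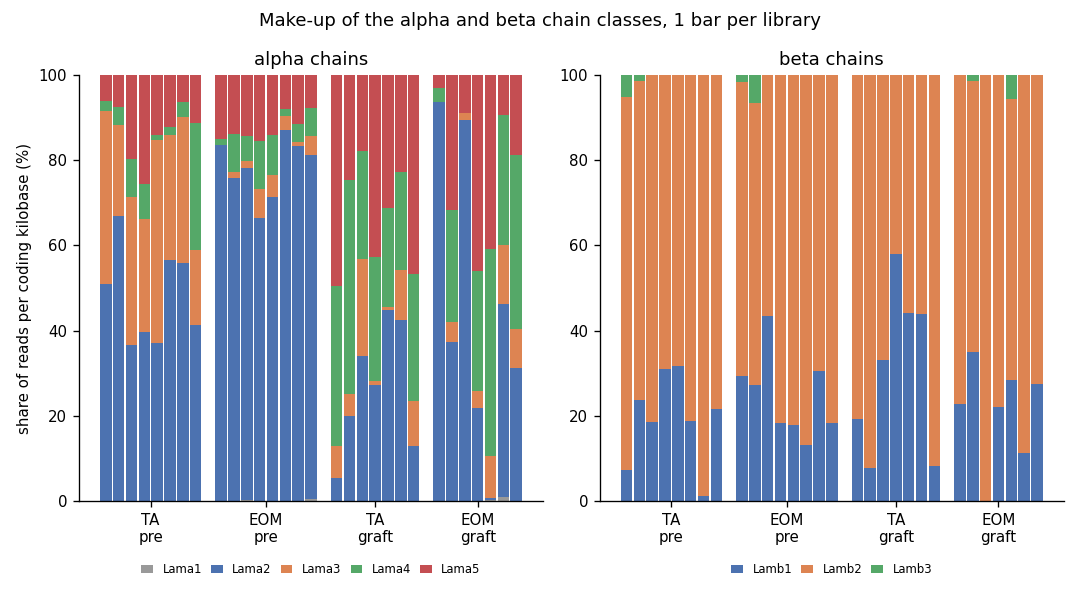
Share of each gene in the summed reads per coding kilobase of its class (vertical axis, percent), 1 bar per library, for α and β chains. *Lama2* makes up 66.4% or more of α chain reads in all 8 EOM pre-graft libraries, while *Lama4* and *Lama5* take most of the bar in many grafts.

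Per coding kilobase the order in grafts was less sharp than before grafting. In TA grafts it was *Lamb2* at 32.4 ± 23.7, *Lamc1* at 25.9 ± 12.9, *Lama5* at 17.0 ± 11.7, *Lama4* at 16.4 ± 9.95, *Lama2* at 12.3 ± 8.86, *Lamb1* at 9.63 ± 4.36, *Lama3* at 5.17 ± 5.90 and *Lamc3* at 3.74 ± 6.97 RPM per kilobase. In EOM grafts it was *Lamc1* at 29.2 ± 18.4, *Lama2* at 20.6 ± 23.8, *Lamb2* at 20.2 ± 8.95, *Lama4* at 9.50 ± 7.16, *Lama5* at 8.68 ± 6.86, *Lamb1* at 6.69 ± 6.12 and *Lama3* at 2.09 ± 1.57. Neighbours in either order lay within 1 SD of each other except *Lamb2* and *Lama4* in EOM grafts, whose gap was larger than either SD.

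Markers of other cell types were set beside *Lama4* and *Lama5*. Of 11 endothelial markers 10 were called higher in TA grafts and 10 in EOM grafts, where 3.79% and 3.51% of all genes were. Among them was *Cldn5*, a tight junction protein of vessels, by 4.88 and 6.84. The summed level of the 11 markers was 19.7 to 3124 RPM in TA and 102 to 1040 RPM in EOM before grafting. After grafting it was 1651 to 9005 RPM in TA grafts and 242 to 7124 RPM in EOM grafts. The TA pre-graft library of mouse 6 of Experiment 2, with the highest *Lama4* of its group, had the second highest endothelial sum (2496 RPM). The highest (3124 RPM) was that of mouse 2 of Experiment 2, with *Lama4* at 4.21 log2 RPM. The TA graft with the lowest *Lama4* and *Lama5*, of mouse 3 of Experiment 2, had the lowest sum of its group (1651 RPM). The EOM graft without a read of *Lama4* stood at 1256 RPM, rank 6 of 7. The lowest EOM graft (242 RPM), of mouse 4 of Experiment 1, held *Lama4* at 3.77 log2 RPM. In the sum of mural cell markers, the EOM graft without *Lama4* was the lowest of its group (535 RPM). The TA pre-graft library of mouse 6 of Experiment 2 was the highest of its group (2121 RPM). The TA graft of mouse 3 of Experiment 2 had rank 6 of 7 (1373 RPM). The lowest TA graft there, of mouse 4 of Experiment 2 (746 RPM), held *Lama4* at 5.99 log2 RPM. None of the 11 endothelial markers was without reads in all libraries of a group. The part of endothelial or mural cells in the *Lama4* and *Lama5* result was not tested.

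**Figure D4:**
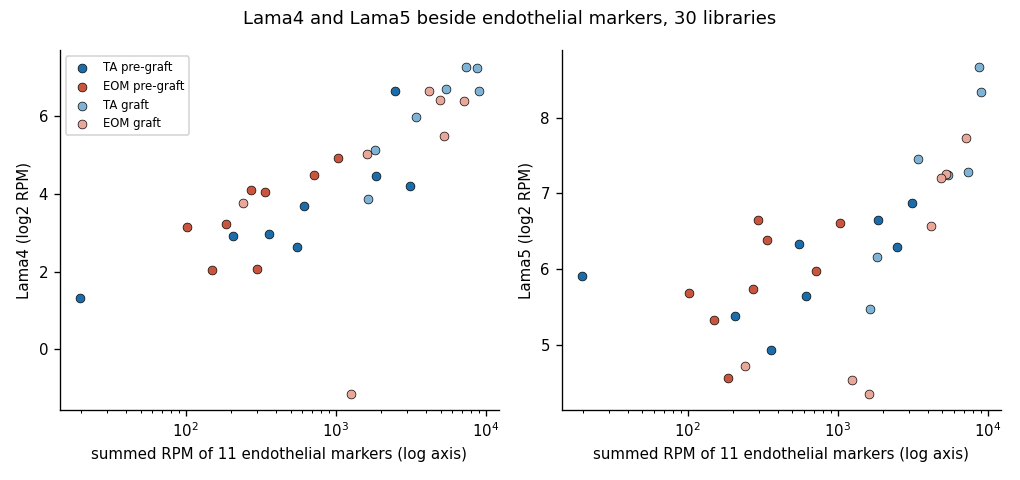
*Lama4* (left) and *Lama5* (right) in log2 RPM against the summed RPM of 11 endothelial markers (horizontal log axis), 1 point per library, coloured by group. TA grafts, with marker sums of 1651 to 9005 RPM, hold the highest *Lama4* and *Lama5*, and pre-graft libraries reach at most 3124 RPM.

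The other marker lists are set against the 3.79% of all genes called higher and 30.9% lower in TA grafts, and 3.51% and 55.8% in EOM grafts. After centring these shares were 7.67% and 5.68% in TA grafts, and 6.65% and 4.84% in EOM grafts. With edgeR they were 5.98% and 3.08% in TA grafts, and 6.93% and 2.9% in EOM grafts. Of 9 mural cell markers, 3 were called higher in TA grafts and 2 in EOM grafts, with 3 lower in the latter (0 after centring), and the sum went from 671 to 2121 RPM in TA before grafting to 746 to 6588 RPM after. Of 11 fibro-adipogenic markers, 5 were called higher and 2 lower in TA grafts, with *Dcn* up by 6.57 and *Dpt* down (a change of -2.66). In EOM grafts 1 was called higher and 3 lower (1 and 0 after centring). The median of their sum went from 4497 to 4694 RPM in TA and from 6186.5 to 2971 RPM in EOM. Of the myofibre markers tested, 2 of 9 were called higher in TA grafts and 8 of 9 in EOM grafts. After centring 4 and 8 were called higher, and with edgeR 5 and 9. The median of the myofibre sum went from 147.5 to 328 RPM in TA and from 35.5 to 398 RPM in EOM. Schwann cell markers gave 1 of 7 lower in TA and 5 of 8 in EOM, the latter near the share of all genes and 1 of 8 after centring. Immune markers gave 1 of 3 higher in TA and 1 of 6 lower in EOM. MuSC markers were called lower in 10 of 10 and 9 of 10 cases, with *Fgfr4* changing by -4.26 in TA. After centring 9 of 10 were called lower in TA and 3 of 10 in EOM, and with edgeR 5 and 1. The median change of the MuSC markers in TA grafts was -3.06, beside -1.09 for all genes. *Lama3* and *Lamc3* also fell further than the median of all genes there, by -1.77 and -2.91 relative to it. *Lama2* and *Lamc1* lay near that median, at -0.24 and -0.30 relative to it. The part of the MuSC marker fall in the changes of these chains was not tested.

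Of 12 laminin receptors 2 rose and 4 fell in TA grafts, and 1 rose and 6 fell in EOM grafts. The falls are near the shares of all genes called lower, 30.9% and 55.8%. The median changes of the list were 0.27 and -1.12. *Itga6*, the α6 subunit of integrins that bind α3 and α5 laminins, rose by 3.27 (SE 0.78, limma adjusted p = 0.00452) in TA grafts and by 4.29 (SE 1.24, limma adjusted p = 0.00766) in EOM grafts. In TA grafts its partner *Itgb4* rose by 2.62 (SE 0.99, limma adjusted p = 0.0417), from pre-graft levels as low as -1.14 log2 RPM. Dystroglycan, *Dag1*, which binds the α2 chain, changed by -2.39 in TA grafts, and the syndecan *Sdc4* by -2.54 in TA and -2.04 in EOM grafts, while *Sdc2* changed by -2.47 in EOM grafts. After centring on library medians the receptor counts were 3 higher and 3 lower in TA (7.67% and 5.68% of all genes) and 1 higher and 0 lower in EOM (6.65% and 4.84%). With edgeR they were 1 higher and 2 lower in TA (5.98% and 3.08%) and 1 higher and 0 lower in EOM (6.93% and 2.9%).

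The dystrophin complex, which ties dystroglycan to the cytoskeleton, and the enzymes that build the sugar by which dystroglycan holds laminin had no member called higher by limma, where 30.9% of all genes were called lower in TA and 55.8% in EOM. Of 11 genes of the complex 5 fell in TA grafts and 9 in EOM grafts, such as *Sgca* and *Sgcb* in TA (changes of -3.03 and -3.03) and *Dtna* in EOM (-3.57). Of 11 glycosylation enzymes 7 fell in each, such as *Pomt1* in TA (-3.80) and *Pomt2* in both (-3.32 and -3.02). After centring on library medians 2 of 11 of the complex were lower with 1 higher in TA and 4 of 11 lower in EOM, and 2 and 0 of the enzymes. Of all genes, 7.67% were then called higher and 5.68% lower in TA, and 6.65% and 4.84% in EOM. With edgeR 0 of the complex were lower in either, with 1 higher in TA, and 1 and 0 of the enzymes. The edgeR shares of all genes were 5.98% higher and 3.08% lower in TA, and 6.93% and 2.9% in EOM. Median changes of these lists were -1.44 and -2.25 in TA and -2.04 and -2.03 in EOM, beside -1.09 and -1.48 for all genes.

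Counts for the partners of laminin in the basement membrane depended on the scaling. Of all genes limma called 3.79% higher and 30.9% lower in TA grafts, and 3.51% and 55.8% in EOM grafts. In TA grafts 1 of 15 rose, *Smoc2* by 4.42, and 2 fell, *Smoc1* (-3.97) and the netrin *Ntn4* (-1.25). In EOM grafts 2 of 16 rose, the type IV collagen *Col4a2* by 1.38 and nidogen *Nid1*, which links laminin to collagen, by 1.36. There 3 fell, among them *Col4a5* (-2.45) and *Col15a1* (-2.17). After centring 4 were higher and 1 lower in TA (7.67% and 5.68% of all genes) and 4 and 0 in EOM (6.65% and 4.84%). With edgeR the counts were 2 and 0 in TA (5.98% and 3.08%) and 6 and 0 in EOM (6.93% and 2.9%). No gene of these 4 lists was called between EOM and TA grafts, where 0 of all 12377 genes tested were called.

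Genes most like *Lamc3* over the 16 pre-graft libraries were *Hox* genes and the homeobox gene *Lbx1*. The Pearson correlations of log2 RPM were 0.97 for *Hoxa7*, *Hoxc9*, *Lbx1* and *Hoxa10* and 0.96 for *Hoxc10*, all transcription factors. EOM pre-graft libraries held 0 reads of each and TA pre-graft libraries 10 to 194, so these values reflect the separation of muscles that chose *Lamc3*, over libraries that differ in depth. Over the 14 grafts they were 0.38, 0.34, 0.21, -0.10 and 0.62 in the same order. *Lama3* stood at 0.89 over the 16 libraries and at 0.29 within the 8 of TA.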

How the data were processed

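RNA-seq of 40 libraries was used; the 40 bisulfite libraries of the same samples were not analysed here. According to the study's methods and the submitters' processing notes, the authors trimmed reads with Trim Galore 0.4.4, aligned them to GRCm38 with HISAT2 2.1.0, and scaled and log2 transformed counts in Seqmonk. The gene table deposited by the authors holds log2 RPM. Library tables deposited by the authors hold counts of total reads and percent of reads by class. The annotation, the counting rule and the use of strand are not given in the sources used here. Library size scaling includes mitochondrial reads, so a library rich in them has lower values for all other genes.

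Whole reads were recovered from the log2 values (99.9986% whole within 0.1 read). Of 25965 rows, 66 repeated symbols were dropped. Groups came from the labels, and the 30 libraries that passed the criteria of the study were compared. The members and lists were chosen with earlier results of these data known. A gene was tested where 4 or more libraries of the comparison exceeded 1 log2 RPM, with limma 3.58.1 (R 4.3.3, mean-variance trend), two-sided, with Benjamini-Hochberg adjustment over all genes tested and calls at adjusted p under 0.05 and a log2 change beyond 1. Class shares were tested by exact permutation of libraries, and the γ class, which counts in the adjustment, is not reported here. Genes named beside the 9 chains are the 2 largest called rises and falls of each list and the 5 most correlated with *Lamc3* outside the lists. The limma test was checked on simulated counts with 200 changed genes. These counts held no shift of all genes and no added mitochondrial reads, so they could not check the effect of scaling. All groups were drawn with 1 common setting for the spread between libraries, so the wider spread of grafts was not checked either. Alternatives were log2(RPM + 1), no filter, a filter of 7 or more libraries exceeding 2 log2 RPM, a joint fit of the 4 groups, every library whether or not it passed, Experiment 2 by itself, a term for experiment, the donor as block, rescaling to non-mitochondrial reads, median centring, edgeR 4.0.16, DESeq2 1.42.0 and leaving out each library. Leaving out grafts with over 50% of gene reads on mitochondrial genes, and union exon lengths for shares, were added after seeing the data. Donors pair the libraries by design (7 donors with both TA libraries, 6 with both EOM libraries, 6 with both grafts). Deviations from group means of libraries of one donor correlated at -0.22 to 0.18.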

Additional observations from a re-analysis of the deposited data

Results flagged for a closer look

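Of 43 sets of 7 or 8 libraries looked at, each the levels or class shares of 1 chain in 1 group, 6 held a library whose gap to the nearest other library was large against the range of the group (Dixon's criterion at 95%), and chance flags about 1 in 20. In EOM grafts *Lama2* stood at 0.79 log2 RPM in mouse 4 of Experiment 2, where *Lamc3* stood at 2.20 as the one EOM graft with reads. *Lama4* and *Lamb1* both had no read (-1.14 log2 RPM) in the EOM graft of mouse 2 of Experiment 2. Before grafting, *Lama3* stood at -0.93 log2 RPM in EOM of mouse 3 of Experiment 1 and *Lamb1* at 0.16 log2 RPM in TA of mouse 5 of Experiment 2.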

How the results depend on the processing

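Calls of *Lama4* and *Lama5* in TA grafts kept their direction under all alternatives run, and *Lama4* lost its call in Experiment 2 alone. The count of chains called in TA grafts was 5 and became 1 in Experiment 2 alone and 3 in 1 fit over 4 groups. Leaving out single libraries gave 3 to 5, with 3 without the TA pre-graft library of mouse 4 of Experiment 1. In EOM grafts the count of 2 became 1 without a filter, with experiment as covariate and in Experiment 2 alone. It became 0 with scaling without mitochondrial genes, after centring and without the 3 grafts rich in mitochondrial reads, and ran from 0 (without the graft of mouse 5 of Experiment 2) to 3 over single libraries left out. With the donor as replicate block it was 4 in TA grafts, 0 in EOM grafts and 0 between grafts. Both edgeR and DESeq2 called 4 chains in TA grafts, all higher, and 2 and 3 in EOM grafts, all higher. The direction of *Lama3* in EOM grafts turned with the replicate block (-0.093), the covariate (-0.17) and without grafts rich in mitochondrial reads (-0.19), and that of *Lama5* with all libraries (-0.22). *Lamb1* turned to 0.27 with edgeR and 0.38 with DESeq2. *Lamb2* turned to 0.11 with scaling without mitochondrial genes, 0.48 after centring, 0.40 with edgeR and 0.50 with DESeq2. *Lamb3* turned to -0.042 with log2(RPM + 1) and -1.09 with all libraries, and *Lamc1* to 0.057 after centring and 0.087 with DESeq2. Between grafts *Lama2* turned to 0.027 with log2(RPM + 1), 0.095 with all libraries, 0.068 when scaled to other than mitochondrial reads, 0.057 after centring, 0.49 with edgeR, 0.50 with DESeq2 and 1.16 without grafts rich in mitochondrial reads. *Lama3* turned to 0.12 with the replicate block and in Experiment 2 alone, and *Lamc1* to -0.026 with all libraries. Single libraries left out moved *Lama2* between -0.55 and 0.88 and *Lamc1* between -0.22 and 0.39 between grafts, and *Lama3* between -0.020 and 1.32 and *Lama5* between -0.094 and 0.47 in EOM grafts. The fall in the *Lama2* share in TA grafts was -20.2 points and passed (adjusted p = 0.0291, exact permutation) with all libraries. The *Lamb1* share in EOM turned to 1.01 points in Experiment 2 alone and 2.51 with all libraries. The causes were not tested. Depth limits *Lamc3*, *Lamb3* and the chains at 0 to 3 reads in single grafts, and the grafts were made from as few as 9 cells.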
